A study of Mus musculus with 9 samples.

Results

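The mature neutrophils of these bone marrow libraries were taken as barcodes whose transcripts were rich in S100a8 and S100a9 and almost free of Camp and Ngp. A barcode had to hold at least 1000 UMIs (unique molecular identifiers, each a counted transcript), at least 500 genes, and at most 10% mitochondrial UMIs. S100a8 and S100a9 together had to make up at least 5% of its UMIs and Camp and Ngp together less than 0.3%, with at least 3 UMIs over Retnlg, Il1b, Csf3r, and Cxcr2 and 0 UMIs of Cd79a. These limits were met by 407 of the 39051 barcodes within the quality limits (1.04%), out of 68444 called as cells. They held 893688 UMIs in all, 50738 to 186896 per mouse. The members were thus selected on measured levels of these 9 genes and on depth, so those levels are a description and no test is given for them.

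Single cell RNA sequencing had been performed on femur bone marrow from females of the NZB strain (New Zealand Black), the NZW strain (New Zealand White), and their hybrid NZBWF1, with 3 mice per strain and 1 library per mouse. The animals came from The Jackson Laboratory in one delivery and were studied at 9 to 10 weeks of age, on standard chow, after a day in metabolic cages and under isoflurane. The labels name no drug treatment. NZBWF1, the F1 of a cross between the other strains, develops lupus-like disease later in life. The question behind the comparison is what sets the marrow of NZBWF1 apart from that of its parents before disease. Each mouse is a replicate (n = 3 per strain). With a single delivery and library per animal, the p-values measure the spread between these mice and their libraries together.

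Neutrophils mature in the marrow from granulocyte-monocyte precursors. Their granules are filled in order: azurophil proteins such as Mpo and Elane come first, the specific granule proteins Camp, Ngp, Ltf, and Lcn2 follow, and gelatinase granules with Mmp9 and secretory vesicles come last. The mature cell has shut down most ribosome production, holds little RNA, and carries receptors such as Cxcr2, which binds chemokines, and Csf3r, which binds the growth factor G-CSF. S100a8 and S100a9 together form calprotectin, an abundant cytosolic protein of these cells.

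The label was checked against markers of other cell types, and most of the 407 barcodes did not carry neutrophil RNA alone. Over 12 lists of 74 genes for other marrow cells, 84 members (20.6%) held at most 2 UMIs and 323 held more, with 11 or more in 193. The monocyte list led in 108 members, the B-lineage list in 58, the dendritic list in 49, and the NK and granulocyte-monocyte precursor lists in 19 each, while 100 members had fewer than 3 UMIs of any list. Mki67 or Top2a, genes of dividing cells, was found in 68 of the 323 members with more other-cell RNA and in 0 of the other 84. That count allows up to 3.57% of barcodes with such a UMI from counting error and sets no limit on expression, since the 84 had a median of 1424 UMIs against 2418 in the members with 11 or more other-cell UMIs. Epx, Prg3, and Il5ra of the eosinophil list were at 0, as were Xcr1 of the dendritic list and Ppbp and Gp1bb of the megakaryocyte list. The barcodes are therefore called members of the S100a8/S100a9-high, Camp/Ngp-low set below.

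Members with little RNA of other cells were richer in S100a8 and S100a9 and poorer in ribosomal protein transcripts. Those with at most 2 other-cell UMIs had a median of 28.6% S100a8 and S100a9, 2.29% ribosomal protein transcripts, 561 genes, and 1424 UMIs. The ribosomal share of the members varied widely, with 82 members under 4%, 11 between 4% and 6%, 32 between 6% and 8%, 39 between 8% and 10%, 129 between 10% and 15%, and 73 between 15% and 20%. In the 29 members under 2% the median share of S100a8 and S100a9 was 31.9%, and in the 41 members at 20% or more it was 6.45%. These values describe the members and were not tested. The selection read S100a8 and S100a9, but not the ribosomal protein or other-cell transcripts.

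Barcodes with the same neutrophil transcripts were far more numerous below the quality limits. Of all called barcodes, 5780 met the gene limits, and 407 of them (7.04%) were within the quality limits, since 5350 had fewer than 500 genes and 4786 fewer than 1000 UMIs. The 5333 that missed the UMI or gene minimum held at most 2 other-cell UMIs in 96.2% of cases, and 91.9% of them had under 4% ribosomal protein transcripts. Depth differs between the sets, with a median of 635 to 812 UMIs per mouse below the limits and 1533 to 2039 among the members. As CPM (counts per 1000000 UMIs, not divided by gene length), the monocyte list summed to 689.8 to 2262 in the members and 47.0 to 161 below the limits, and the granulocyte-monocyte precursor list reached 7843 in the members and at most 61.5 below the limits. In NZBWF1 the granulocyte-monocyte precursor list stood at 0 to 1115 CPM in the members and 2.63 to 53.8 below the limits. These ranges overlap. Other lists differed by strain in their direction. The T list stood at 116 to 592 CPM in the NZB members and 0 to 5.29 below the limits, but at 107 to 180 and 309 to 381 in NZW. The erythroid list stood at 50.7 to 2093 CPM in the NZB members and 189.7 to 5001 below the limits, ranges that overlap, and at 2108 to 12988 and 121 to 1536 in NZBWF1.

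**Figure D1:**
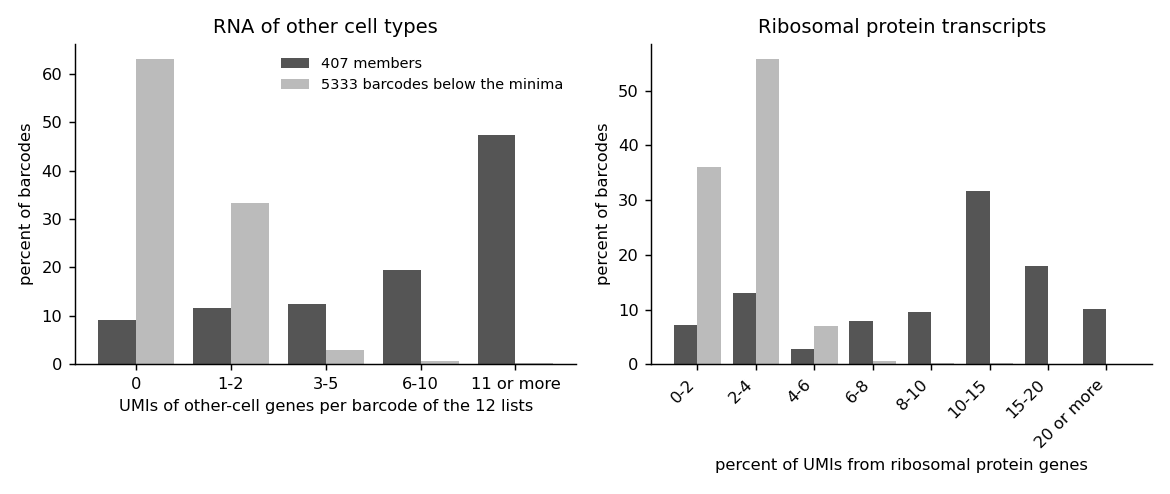
Percent of barcodes (y axes) by the number of UMIs from 12 lists of other-cell genes (left) and by the percent of UMIs from ribosomal protein genes (right), for the 407 members (dark) and the 5333 called barcodes that met the same gene limits but missed the UMI or gene minimum (light). Members with 11 or more other-cell UMIs numbered 193, while 96.2% of the barcodes below the minima held at most 2.

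A second set was therefore formed, after the data had been seen, to show which differences hold in barcodes with little RNA of other cells. This wider set took barcodes of the unfiltered matrix with at least 500 UMIs that met the gene and mitochondrial limits, missed the UMI or gene minimum, and held at most 2 other-cell UMIs. It comprised 5366 barcodes, 403 to 765 per mouse, with 307384 to 551415 UMIs per mouse. It shares no barcode with the members but comes from the same mice, so it shows the same animals in other droplets and is not independent evidence on the strains.

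The libraries differed in how many neutrophil barcodes had been called as cells. Between 447 and 873 barcodes per mouse had at least 500 UMIs and met the gene limits. All of them were called in replicates 1 and 3 of each strain, against 41.3% in NZB 2, 20.7% in NZW 2, and 52.6% in NZBWF1 2. As a percent of all barcodes with at least 500 UMIs they made up 10.9 ± 5.06 in the NZB mice, 8.69 ± 1.59 in the NZW mice, and 8.18 ± 1.83 in the NZBWF1 mice (SD, n = 3 per strain), a spread between strains within that between mice (exact permutation, p = 0.604). In the members, NZB 1 and NZBWF1 1 stood apart from the other libraries. At most 2 other-cell UMIs were held by 14 of the 27 members of NZB 1 and 15 of the 28 of NZBWF1 1, against 8.51% to 28.6% elsewhere, and their median ribosomal share was 2.75% and 2.74% against 10.2% to 13.7%.

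**Figure D2:**
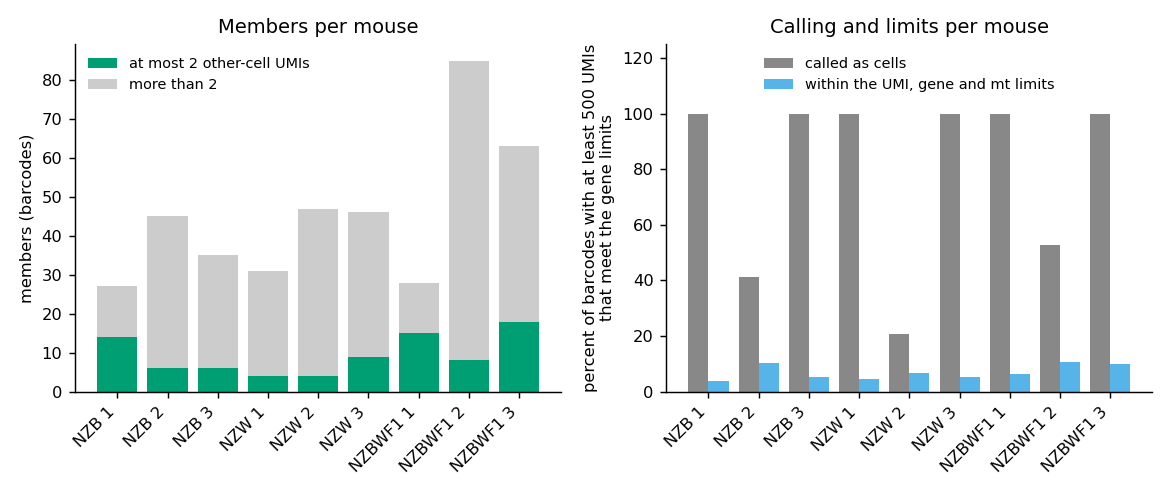
Members per mouse, split by other-cell RNA (left), and the percent of barcodes with at least 500 UMIs that met the gene limits and were called as cells or lay within the UMI, gene, and mitochondrial limits (right). NZBWF1 2 gave the most members (85) and NZB 1 the fewest (27), and calling reached 100% in all libraries except the 3 labelled replicate 2.

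The number of members did not differ between strains beyond the correction for the measures compared. NZB gave 27, 45, and 35 members, NZW 31, 47, and 46, and NZBWF1 28, 85, and 63. They made up 1.02% ± 0.118 of the kept NZB barcodes, 0.854% ± 0.117 of NZW, and 1.24% ± 0.249 of NZBWF1 (exact permutation, p = 0.0429, or 0.196 adjusted over 11 measures). By the edgeR quasi-likelihood test on cell numbers NZBWF1 lay 0.44 above the mean of the parents' logs (log2, SE 0.158, adjusted p = 0.115), and NZB lay 0.23 above NZW (SE 0.192, adjusted p = 0.475). NZBWF1 2, which has the most members, had 8 of 85 with at most 2 other-cell UMIs, and the part of other-cell RNA in the share was not tested. Median UMIs per member, which the depth minimum limits, are given as a description and were 1803 ± 147, 1709.5 ± 215, and 1792 ± 219 in NZB, NZW, and NZBWF1.

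The selecting genes ran from high to barely detected. Retnlg, which encodes a secreted resistin-like protein of neutrophils, had a UMI in 99.8% of the members, Cxcr2 in 61.2%, Csf3r in 55.8%, and Il1b, the cytokine interleukin-1 beta, in 22.9%. In 2108 barcodes with at least 5 UMIs of the B-cell receptor gene Cd79a, which should lack these genes, the shares were 12.1%, 4.08%, 3.51%, and 1.04%, at a median of 2116 UMIs against 1813. Free RNA from barcodes with fewer than 100 UMIs was expected to give 0.0307 to 0.0984 UMIs of the 4 genes per barcode, where the members had a median of 32 to 71. In the wider set Retnlg stood at 51619 ± 6378 CPM in NZB, 48159 ± 3576 in NZW, and 43196 ± 867 in NZBWF1.

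Barcodes just inside and just outside the limits were set side by side. The 27 members with 5% to 6% S100a8 and S100a9 had a median of 5.32%, and the 48 otherwise like barcodes with 4% to 5% had 4.52%, values that these ranges fix. Their medians of other-cell UMIs, which the selection did not read, were 19 and 26, and their median ribosomal shares 21.5% and 19.5%. For Camp and Ngp, 63 members lay between 0.2% and 0.3% and 45 barcodes between 0.3% and 0.4%. The minimum of 3 UMIs decided little, since 1 member had fewer than 5 UMIs and 14 barcodes fell under it. No barcode sequence was shared between libraries among the members, while 342 (0.876%) of the kept barcodes had a sequence found in more than 1 library.

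Granule genes stood at different levels in the members, the wider set, and immature neutrophils. Lcn2, the iron-binding lipocalin of specific granules, summed to 3120 CPM in the members and 6027 in the wider set, against 22491 in 8621 immature cells (Camp and Ngp at least 1%, without Mki67 or Top2a). Ltf, lactoferrin, stood at 44.8, 38.8, and 12022 CPM in the same order. Mmp9 and Mmp8, the gelatinase and the collagenase of neutrophil granules, stood at 1018 and 1710 CPM in the members and 2411 and 3170 in the wider set. The azurophil genes Mpo and Elane reached 405 and 544 CPM in the members, 0 in the 84 members with few other-cell UMIs, and 5.23 and 8.47 in the wider set. Both count as other-cell RNA, so the choice of the 84 members and of the wider set limits these values. Ccl6, a chemokine, stood at 1248, 3355, and 91.8 CPM in members, wider set, and immature cells. These contrasts between stages are the rule's own and were not tested.

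Ferritin light chain transcripts gave the smallest p-values between the parents in the members. Ftl1 encodes the light chain of ferritin, the protein that stores iron, and lies at chr7:45457944-45459884 (minus strand, GRCm38). Ftl1-ps1, a copy annotated as protein coding, lies at chr13:74399694-74407346 (plus strand). Their coding sequences are both 549 bases long and differ at 2 positions (99.6% identity), so reads from the coding part can rarely be assigned to either. The 3' untranslated parts, where this assay counts, are 166 and 194 bases long. Of 194 aligned positions 165 are identical (85.1%), a share that counts the bases Ftl1 lacks as differences. Of the 166 bases of Ftl1, 165 thus match. The differing stretch of the coding sequence, positions 445 to 504 counted from the start codon, is printed because both differences fall in it, and the capitals mark them.
Ftl1: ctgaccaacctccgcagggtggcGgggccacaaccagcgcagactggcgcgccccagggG
Ftl1-ps1: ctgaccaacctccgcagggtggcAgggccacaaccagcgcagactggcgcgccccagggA

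The copies showed opposite patterns in the parents, with NZBWF1 expressing both. In the members Ftl1 stood at 5511, 4031, and 6134 CPM in the NZB mice, at 135, 115, and 143 in the NZW mice, and at 3863, 2622, and 2829 in the NZBWF1 mice. No NZW mouse came near any mouse of the other strains, and the difference between NZB and NZW was 5.30 on the log2 scale (SE 0.336, adjusted p = 5.05e-11, edgeR). Ftl1-ps1 had 2, 0, and 1 UMIs in the NZB mice against 335, 455, and 416 in NZW, which is 361 times higher as CPM in NZW with a counting interval of 123 to 1755. In NZBWF1 it had 149, 428, and 348 UMIs, or 2599 ± 324 CPM. The wider set gave Ftl1 at 6485 ± 1289.5 CPM in NZB, 263 ± 18.7 in NZW, and 3987 ± 154 in NZBWF1, and Ftl1-ps1 at 31.6 ± 9.87, 6724 ± 421, and 3422 ± 418.

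Summed over both copies, the light chain did not separate the parents. The sum was 5545, 4031, and 6146 CPM in the NZB members, 5169, 4858, and 3867 in NZW, and 6800, 4912, and 5400 in NZBWF1. The ranges of all 3 strains overlapped, and they did in the wider set as well, at 6516 ± 1289, 6987 ± 406, and 7409 ± 416 CPM. The coding identity of the copies leaves uncertain which copy a read belongs to, and the part of this assignment in the calls was not tested. Fth1, the heavy chain of ferritin, was 6435 ± 90.3 CPM in NZB members and 3884 ± 310.2 in NZW without passing the test (log2 0.73, adjusted p = 0.161), and it passed in the wider set (log2 0.67, SE 0.128, adjusted p = 0.00045).

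NZB and NZW members were compared over 1622 genes by edgeR's quasi-likelihood test on UMIs summed per mouse. At an adjusted p under 0.05, 18 genes were higher in NZB and 16 were higher in NZW, apart from Ngp, which the selection reads and whose value is no test. The shares over all genes tested, which count Ngp, are 1.17% higher in NZB and 0.986% higher in NZW, or 2.16% in all. Of the 34 genes, 26 could be tested in the wider set. All 26 had the same direction there and 22 passed the test, where 545 of 3558 genes passed (15.3%), 292 higher in NZB (8.21%) and 253 higher in NZW (7.11%), counts that include the selecting genes Il1b, Camp, and Ngp. The wider set holds more UMIs per mouse than the members, so the counts of calls are not comparable between the sets.

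Among the genes higher in NZB were Lcn2, Lrg1, and Ly6g. Of 12 genes of the specific granule list tested in the members, 2 were higher in NZB (16.7%, beside 1.17% of all genes), 1 in NZW (8.33%, beside 0.986%), and 9 did not pass. Lcn2 stood at 6762, 5737, and 4565 CPM in the NZB members and at 1818, 2366, and 1611 in NZW, with no overlap (log2 1.57, SE 0.277, adjusted p = 0.00135). Lrg1, a secreted glycoprotein stored in neutrophil granules, was 922 ± 99.3 against 285 ± 92.1 CPM (log2 1.73, SE 0.302, adjusted p = 0.00129). Ly6g, the surface protein by which mouse neutrophils are sorted, stood at 1893, 969, and 713 CPM in NZB and 316, 427, and 322 in NZW (log2 1.73, SE 0.339, adjusted p = 0.00389). All 3 passed in the members when any single mouse was left out. In the wider set Lcn2 (log2 1.16, adjusted p = 0.0455), Lrg1 (log2 1.70, adjusted p = 0.0271), and Ly6g (log2 1.72, adjusted p = 0.00066) passed as well. There the call of Lcn2 was lost without NZB 2, NZB 3, NZW 1, NZW 2, or NZBWF1 3 (highest adjusted p = 0.0947) and that of Lrg1 without NZB 2, NZB 3, NZW 2, or NZW 3 (0.0952). Olfm4, which marks a subset of neutrophils and their specific granules, was higher in NZB in the members (log2 2.23), a call lost without NZW 3 (adjusted p = 0.0609), and in the wider set (log2 1.41, adjusted p = 0.0107).

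Other genes higher in NZB had few or no reads in NZW. Asprv1, an aspartic protease, stood at 778, 678, and 404 CPM in the NZB members and 150.3, 83.4, and 35.8 in NZW (log2 2.89, SE 0.398, adjusted p = 6.62e-05). It was higher in the wider set by 2.14 (SE 0.176). Tpm3-rs7, a copy related to the tropomyosin gene Tpm3, had 42 UMIs in NZB and 0 in NZW, at least 15.6-fold higher in NZB, counting a floor of 3 UMIs over the strain. The wider set had 269 and 8 UMIs of it. Cmc2, which takes part in the assembly of a mitochondrial enzyme, stood at 175 ± 45 and 23.9 ± 10.7 CPM in the members and at 198 ± 12.5 and 3.31 ± 2.9 in the wider set (log2 5.90, SE 0.344, adjusted p = 3.14e-13). The members' call of Cmc2 is lost without NZB 3 (adjusted p = 0.0654).

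Several genes called in the members belong to other cells or had few UMIs in the wider set. Klk1, a kallikrein protease, stood at 372, 407, and 297 CPM in the NZB members and 30.1, 0, and 17.9 in NZW (log2 4.50, adjusted p = 6.62e-05), but it had 2 UMIs in NZB and 0 in the other strains in the wider set. Siglech, a receptor of plasmacytoid dendritic cells, stood at 219.8, 223, and 226 CPM in NZB and 60.1, 31.3, and 35.8 in NZW, and it belongs to the dendritic list. Its call was lost without NZW 2 or NZW 3 (highest adjusted p = 0.0665). The dendritic list led in 21 members of NZB, 11 of NZW, and 17 of NZBWF1. On the other side stood the B-lineage genes Vpreb3, Cd79b, and Ebf1. Cd79b encodes a signalling chain of the B-cell receptor and Ebf1 a B-cell transcription factor. All 3 were higher in NZW members, Vpreb3 by 3.09 and Cd79b and Ebf1 by 2.12 on the log2 scale. The call of Vpreb3 was lost without NZB 2, NZW 2, or NZW 3 (highest adjusted p = 0.103), and those of Cd79b (0.172) and Ebf1 (0.197) without NZB 1, NZB 2, NZW 2, or NZW 3. The B-lineage list led in 6 members of NZB and 26 of NZW, and summed to 16.9 to 357 CPM in the NZB mice and 826 to 1355 in NZW. The wider set limits the UMIs of Siglech and of these 3 genes by its choice of barcodes, so it gives no check of their calls. The part of these cells in the calls of other genes was not tested.

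Genes higher in NZW included a subunit of the respiratory burst. Cybb, the catalytic chain of the NADPH oxidase that makes superoxide, stood at 237, 300.4, and 487 CPM in the NZB members and 947, 1105, and 967 in NZW (log2 -1.55, SE 0.29, adjusted p = 0.00264). NZBWF1 lay between at 744 ± 115 CPM. The wider set gave 175 ± 38.4, 715 ± 82.3, and 489.7 ± 72.8 CPM in NZB, NZW, and NZBWF1 (log2 -1.89, SE 0.173, adjusted p = 4.29e-09). Cyba, which pairs with Cybb in the membrane, and Rac2, the small GTPase of the complex, were among the 6 other oxidase genes tested in the members, of which 0 passed by edgeR or DESeq2 and 1 had an unadjusted p under 0.05. The cytosolic subunit Ncf1 was higher in NZW in the wider set (log2 -0.58, adjusted p = 0.0356) and Ncf4 in NZB (log2 0.43, adjusted p = 0.043). The call of Ncf1 was lost without NZB 1, NZB 3, NZW 1, NZW 2, NZBWF1 1, or NZBWF1 2 (highest adjusted p = 0.292), and that of Ncf4 without NZB 2, NZB 3, NZW 1, NZW 3, or NZBWF1 2 (0.211).

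**Figure D3:**
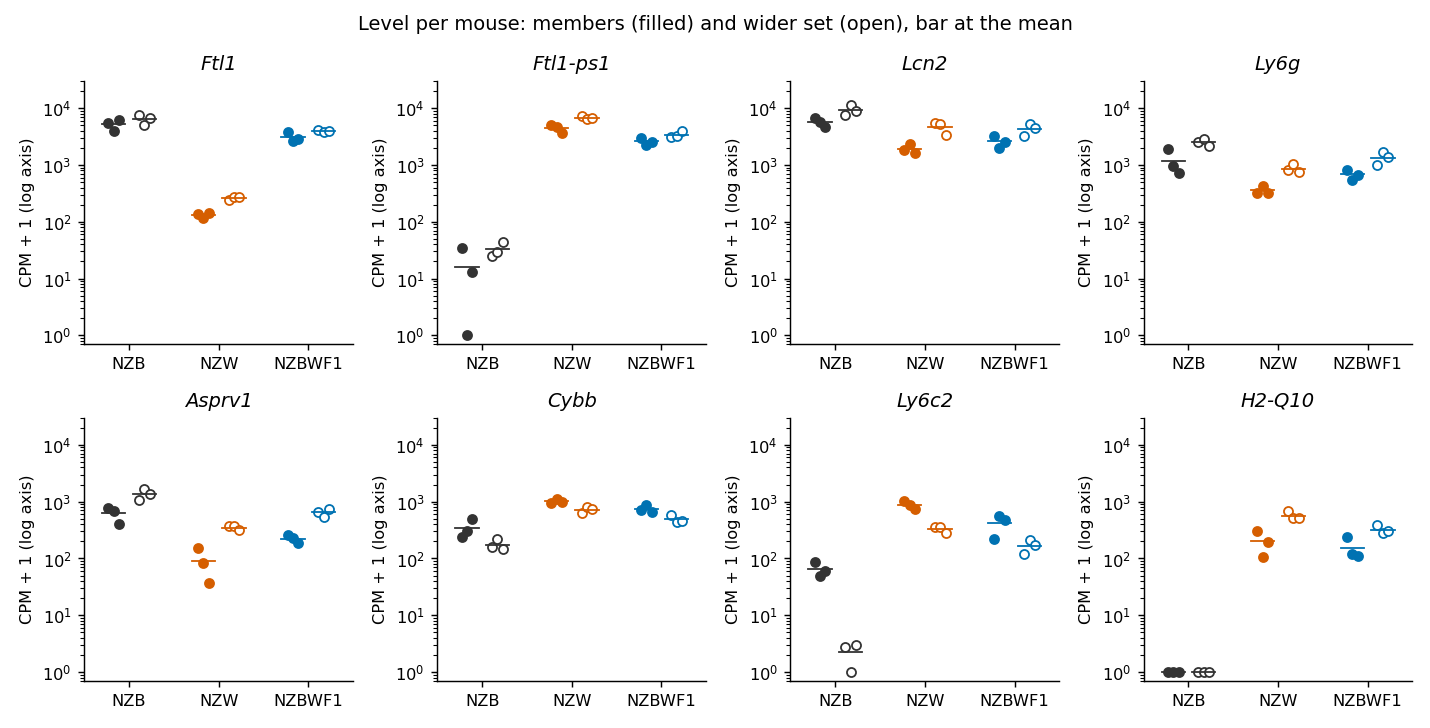
Level of 8 genes per mouse as CPM plus 1 on a log axis, in the members (filled) and in the wider set (open), with a bar at the mean of the 3 mice of a strain. H2-Q10 is at 0 in all NZB mice of both sets, Ftl1 and Ftl1-ps1 trade places between NZB and NZW, and Cybb is higher in every NZW mouse than in every NZB mouse.

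Some Ly6 and class I genes were called in either direction. Of 8 interferon-induced transmembrane and Ly6 genes tested in the members, 2 were higher in NZB (25%, beside 1.17% of all genes), 1 in NZW (12.5%, beside 0.986%), and 5 did not pass. H2-Q10, a nonclassical class I gene at chr17:35470089-35474563, had 0 UMIs in all NZB mice and 20, 10, and 22 in the NZW mice, at least 15.6-fold higher in NZW. The wider set had 0 against 816, at least 255-fold higher. H2-T23, another nonclassical class I gene, was also higher in NZW (members log2 -1.48, wider set log2 -2.86), but the members' call was lost without any of the 6 parental mice (highest adjusted p = 0.197). Ly6c2, a surface protein of monocytes and immature neutrophils, had 5 UMIs in each NZB mouse and 67, 84, and 82 in the NZW mice (log2 -3.79, SE 0.387, adjusted p = 5.15e-07). The wider set had 2 against 470 UMIs of it, which is 220.0 times higher in NZW with a counting interval of 60.6 to 1822. Ly6a, which marks early progenitors and other cells, had 32 UMIs in NZB members and 1 in NZW, 35.6 times higher in NZB (interval 5.95 to 1449), but in the wider set 7 and 1.

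Of the genes tested in both sets, 4 did not pass in the wider set. Tab2, an adaptor of inflammatory signalling, was lower in NZB members (log2 -2.08, SE 0.548, adjusted p = 0.0434) and lay at -0.08 in the wider set (adjusted p = 0.897). Prok2, a chemokine-like secreted protein, stood at 278 ± 10.9 CPM in NZB members and 33.4 ± 25.6 in NZW (log2 3.18, SE 0.49, adjusted p = 0.000235), and at 541 ± 364 and 143 ± 75 in the wider set (log2 2.09, adjusted p = 0.0983). Wfdc17, a secreted protein with a protease inhibitor domain, was higher in NZB members (log2 3.26, adjusted p = 0.0134, lost without NZB 1, NZB 2, or NZW 2 with a highest value of 0.170) and missed the threshold in the wider set (log2 3.08, adjusted p = 0.0704), where NZW 1 stood at 1534 CPM and the other NZW mice at 172 and 230.3. Pim1, a kinase that supports survival, was higher in NZB members by 1.76 (lost without NZW 2 or NZW 3, highest adjusted p = 0.0720) and by 1.09 in the wider set (adjusted p = 0.119).

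**Figure D4:**
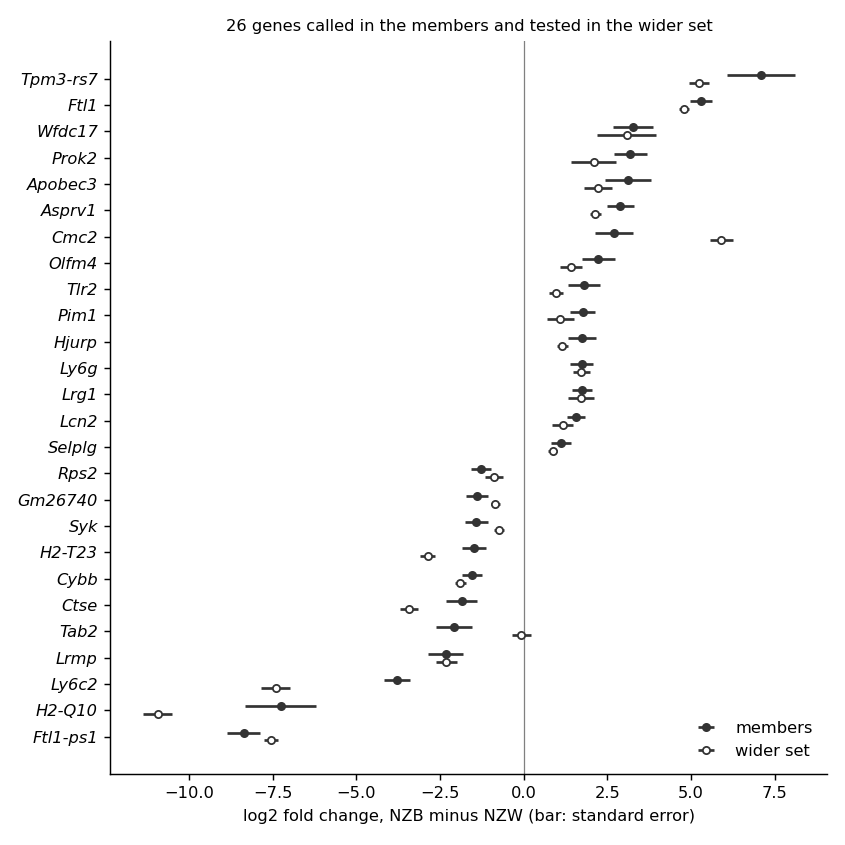
Log2 fold change of NZB minus NZW (x axis, bars for the standard error) in the members (filled) and in the wider set (open) for the 26 genes that passed in the members and were tested in both sets. The points of each gene lie on the same side of 0, and Tab2 lies closest to 0 in the wider set; where a strain has 3 or fewer UMIs the fitted value is not a size.

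Gene lists were described by counts in the wider set, beside a median of -0.02 over all 3558 genes tested, of which 8.21% were higher in NZB and 7.11% higher in NZW. The list of pattern recognition receptors and their partners also holds other myeloid receptors, such as Pirb, Pira2, Siglece, and Cd300ld. Of its 19 genes tested, 11 were higher in NZB (57.9%) and 2 in NZW (median log2 0.78), or 8 and 2 by DESeq2. Those higher in NZB included the lectin Clec4e (437 ± 3.99 against 280.2 ± 66.6 CPM, adjusted p = 0.000593), Tlr2, the receptor of bacterial lipoproteins (206 ± 41.6 against 119.9 ± 37.3, adjusted p = 0.00179), and the activating receptor Trem1 (127 ± 26.8 against 71.8 ± 11.9, adjusted p = 0.00141). The paired receptors of the Pir family moved apart: Pirb, the inhibitory member, was higher in NZB (log2 0.88) and Pira2, an activating member, in NZW (log2 -0.57, lost without NZB 3, adjusted p = 0.0512). In the members Tlr2 was the only gene called of 10 tested in the list, and that call was lost without NZB 1, NZB 3, NZW 2, NZW 3, NZBWF1 2, or NZBWF1 3 (highest adjusted p = 0.285).

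Interferon-stimulated genes were mostly higher in NZB among those that passed. Of 40 tested in the wider set, 15 were higher in NZB (37.5%, beside 8.21% of all genes) and 1 in NZW (median log2 0.61), and 24 did not pass. DESeq2 called 10 and 1, and edgeR called 10 and 1 without NZW 3. In the members 16 were tested, and Apobec3 was higher in NZB and Ifi203 in NZW. The call of Apobec3 was lost without NZB 3 or NZW 3 (highest adjusted p = 0.0762) and that of Ifi203 in 8 of 9 fits without 1 mouse, all except the one without NZBWF1 1 (0.318), and DESeq2 called 1 higher in NZB and 0 in NZW. Rtp4, which helps receptors reach the surface and restricts viruses, stood at 304, 389.6, and 331 CPM in NZB and 122, 85.1, and 149 in NZW (log2 1.68, SE 0.183, adjusted p = 1.25e-07). Slfn4, a schlafen gene of myeloid cells, was 258 ± 3.98 against 120.3 ± 15.4 CPM. Ifit1, an RNA-binding antiviral protein, was 62.7 ± 25.3 against 20.1 ± 8.97 CPM. Ifi204, a DNA-sensing family member, had 0 UMIs in NZB and 87 in NZW, at least 27.2-fold higher in NZW. NZBWF1 lay at 177 ± 6.57 CPM for Rtp4 and 14.4 ± 9.18 for Ifit1.

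The share of members with interferon transcripts did not separate the strains. At least 2 UMIs of 8 interferon genes, in members thinned to 1000 UMIs, were found in 4.90% ± 2.31 of NZB, 5.75% ± 6.56 of NZW, and 3.95% ± 0.700 of NZBWF1 members (n = 3 mice each; exact permutation, p = 0.896). Without thinning the shares were 6.88%, 8.97%, and 8.57%. In B-lineage barcodes thinned alike, the share was 0% to 2.5% per mouse. The smallest p that these partitions of the mice can give is 0.00357.

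Cytokine and chemokine receptors leaned to NZB, with an exception. Of 21 tested in the wider set, 6 were higher in NZB (28.6%, beside 8.21% of all genes) and 1 in NZW, but 3 and 1 without NZW 3 and 4 and 1 without NZW 2. Il4ra, the receptor chain for interleukins 4 and 13, stood at 100.2, 177, and 126 CPM in NZB and 20, 26.9, and 23.6 in NZW (log2 2.63, SE 0.282, adjusted p = 9e-08). C5ar1, the receptor of the complement fragment C5a, was 624 ± 12.3 against 499.9 ± 65.7 CPM, a call lost without NZB 2, NZW 2, or NZW 3 (highest adjusted p = 0.0826). Cxcr4, which holds neutrophils in the marrow, was the exception at 73.7 ± 31.1 against 183 ± 49.7 CPM (log2 -1.10, adjusted p = 0.00871). Of 10 cytokine genes tested, 0 were higher in NZB and 3 in NZW by edgeR (30%, beside 7.11% of all genes). At an unadjusted p under 0.05 the counts were 3 and 4, and by DESeq2 1 and 3. By edgeR 2 were higher in NZB without NZW 1, and 1 without NZBWF1 1. Those higher in NZW were Il1rn, the antagonist of the interleukin-1 receptor (log2 -1.17), Tgfb1 (log2 -1.39), and the B-cell survival factor Tnfsf13b (log2 -1.28). Among inflammasome genes Nlrp3 was higher in NZW (log2 -1.07), and Casp4 (log2 1.16) and the feedback inhibitor Socs3 (log2 2.56, adjusted p = 0.018) were higher in NZB. The calls of Casp4 (highest adjusted p = 0.108) and Socs3 (0.0647) were lost without NZB 2, NZW 2, or NZW 3.

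Granule and adhesion genes went both ways. Both lists had 3 genes higher in each strain by edgeR, beside 8.21% of all genes higher in NZB and 7.11% in NZW. These were 20% each way of 15 genes of the specific granule list and 16.7% each way of 18 adhesion genes. By DESeq2 the adhesion list had 3 higher in NZB and 1 in NZW, and the specific granule list 3 and 3. Without NZB 2 the specific granule list had 2 higher in NZB and 6 in NZW. The 3 adhesion genes higher in NZW became 5 without NZB 2, 1 without NZB 1 or NZW 1, 2 without NZW 2, NZW 3, NZBWF1 2, or NZBWF1 3, and 0 without NZB 3 (edgeR). Of the 15 genes of the specific granule list in the wider set, Hp, Olfm4, and Lcn2 were higher in NZB and Cebpe, Cybb, and Itgb2l in NZW. Cebpe is not itself a granule protein, and it is counted among the transcription factors too. Cebpe, the transcription factor that switches on specific granule genes, was 15.7 ± 2.81 CPM in NZB and 167 ± 38.6 in NZW (log2 -3.20, SE 0.276, adjusted p = 1.61e-09), and Itgb2l, an integrin-like gene, was 8.75 ± 6.64 and 142 ± 33.4. Padi4, the enzyme that citrullinates histones, stood at 204, 190.1, and 177 CPM in NZB and 581, 441, and 584 in NZW (log2 -1.32, SE 0.153, adjusted p = 3.07e-07). Camp and Ngp themselves, both read by the selection, differed in opposite directions, Camp at 161 ± 48.7 and 407 ± 93.4 CPM and Ngp at 661 ± 181 and 193 ± 34.5. The limit of 0.3% on their sum thus acted on different transcripts in the strains, and its part in the granule values was not tested. Selplg, the ligand of P-selectin, was higher in NZB (log2 0.86) and the integrin Itgam in NZW (log2 -0.46), but the call of Itgam was lost without NZB 1, NZB 3, NZBWF1 2, NZBWF1 3, or any NZW mouse (highest adjusted p = 0.252).

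Of the genes for survival and transcription, most did not pass. Of 14 survival genes Fas, the death receptor (145 ± 15 against 28.5 ± 10.2 CPM), Mcl1, which keeps neutrophils alive (1538 ± 95.2 against 859 ± 233), and Gadd45a were higher in NZB, and Bax, which promotes apoptosis, was higher in NZW (3.33 ± 3.18 against 22 ± 1.85). The 3 of 14 higher (21.4%) and 1 lower (7.14%) stand beside 8.21% and 7.11% of all genes. The call of Gadd45a was lost without NZB 3, NZW 2, or NZW 3 (highest adjusted p = 0.176) and that of Bax without NZB 3 (0.0536). Of 21 transcription factors 6 were higher in NZB (28.6%, beside 8.21% of all genes) and 2 in NZW, Cebpe and Zeb2 (lost without NZW 2, adjusted p = 0.0516). Those higher in NZB included Cebpb (1161 ± 60.4 against 456 ± 170.1 CPM, adjusted p = 0.00045) and Hif1a (143 ± 33.8 against 45 ± 12.5, adjusted p = 4.8e-06). Junb and Fos, which also respond to tissue dissociation, were 2 of the 3 dissociation genes higher in NZB, of 10 tested (median log2 0.51). That is 30%, beside 8.21% of all genes. At an unadjusted p under 0.05 (edgeR), 8 of the 10 were higher in NZB and 0 in NZW, beside 953 of all 3558 genes in either direction. Without NZW 3, 2 passed. The call of Fos was lost without NZB 1 or NZW 3 (highest adjusted p = 0.215). Median UMIs in the wider set were 768 ± 42.3, 682 ± 30.5, and 710 ± 34.0 in NZB, NZW, and NZBWF1. The part of dissociation or depth in these differences was not tested. Stefin A family genes, protease inhibitors of mature neutrophils, had 0 called of 10 by edgeR, with a median log2 of 0.22 (2 at an unadjusted p under 0.05, 1 called by DESeq2).

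**Figure D5:**
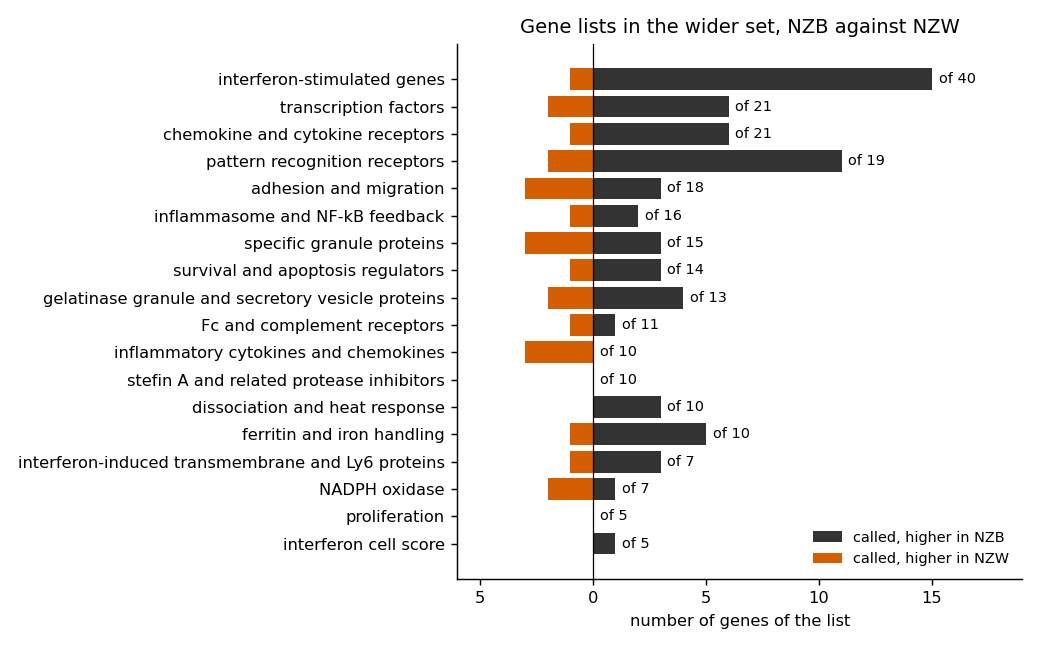
Number of genes per list called in the wider set as higher in NZB (right of 0) or higher in NZW (left of 0) at an adjusted p under 0.05, with the number of genes tested beside each bar. The lists of pattern recognition receptors (11 and 2 of 19) and interferon-stimulated genes (15 and 1 of 40) have the most genes called higher in NZB. The adhesion and specific granule lists have 3 in each direction.

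A T-cell gene, Cd3d, was found in neutrophil barcodes of NZW and NZBWF1. Cd3d encodes a chain of the T-cell receptor complex and lies at chr9:44981786-44987339. Without the limit on other-cell RNA, the wider set held 4 UMIs of Cd3d in NZB, 534 in NZW, and 238 in NZBWF1. Its partners were close to absent in the same barcodes, with Cd3e at 0 in all mice, Cd3g at 1, 8, and 3 UMIs in NZB, NZW, and NZBWF1, and Trac at 2 in all. In immature neutrophils Cd3d stood at 9.91 ± 0.711 CPM in NZB and 271 ± 58.8 in NZW. Since Cd3d counts as other-cell RNA, the limit of 2 UMIs removed some NZW barcodes, and 98.6% ± 0.227 of the NZB, 94.5% ± 1.78 of the NZW, and 96.0% ± 0.994 of the NZBWF1 barcodes passed it. In the members Cd3d was found at 64.3 ± 46.9, 113 ± 19.8, and 172 ± 143 CPM, and Cd3g had 25, 0, and 13 UMIs.

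NZBWF1 members were compared with the mean of the parents' logs, and Ftl1 and Ftl1-ps1 were the only genes to pass (2 of 1622, 0.123%; 78 had an unadjusted p under 0.05). Ftl1 was higher by 1.93 (SE 0.235, adjusted p = 2.08e-05) and Ftl1-ps1 passed with an adjusted p of 4.27e-07, without a size, since it has 3 UMIs in NZB. Each copy has few UMIs in 1 parent, and then a mean of logs lies far below the mean of the levels. The NZBWF1 level of Ftl1, 3105 CPM, was 116% of the arithmetic mean of the parents (2678 CPM), and that of Ftl1-ps1 was 115%. Tested against sums that mix equal UMIs of an NZB and an NZW mouse, Ftl1 was higher by 0.22 (SE 0.284) and Ftl1-ps1 by 0.21 (SE 0.279), both with an adjusted p of 0.995. In that comparison 2 genes passed of 2217, both lower in NZBWF1.

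Against single parents, 9 genes passed between NZBWF1 and NZB (0.555%) and 3 between NZBWF1 and NZW (0.185%). Ly6c2, at 217, 562, and 480.1 CPM in the NZBWF1 members, was higher than in NZB by 2.84 (adjusted p = 0.000201), and Asprv1 was lower than in NZB (log2 -1.47, adjusted p = 0.043). Against NZW the calls were Ftl1, Tpm3-rs7, and Ly6a. The comparisons share the NZBWF1 mice, so their lists are not compared with each other.

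When the wider set of NZBWF1 was compared with the mean of the parental logs, 17 genes passed (0.478%), 15 of them higher in NZBWF1 than that mean and 2 lower. All 17 also passed between NZB and NZW. Where 1 parent has few UMIs, the mean of logs lies far below the mean of the levels. A call therefore does not place NZBWF1 above both parents. For example, Ly6c2 stood at 1.28, 328, and 168 CPM in NZB, NZW, and NZBWF1, and Cmc2 at 198, 3.31, and 108. The pair of genes that were lower in NZBWF1 was Cd14, the co-receptor for bacterial endotoxin, and Plin2, a coat protein of lipid droplets. Cd14 stood at 146, 206, and 244 CPM in NZB, 166, 143, and 99.7 in NZW, and 111, 81.5, and 89.7 in NZBWF1 (log2 -0.93, SE 0.202, adjusted p = 0.0243). Plin2 stood at 157 ± 12.6, 94.5 ± 20.1, and 76.2 ± 7.77 CPM (log2 -0.79, SE 0.183, adjusted p = 0.0412). Every NZBWF1 mouse was below every NZB mouse for both genes, while the NZBWF1 and NZW ranges overlapped for both. Both calls were lost without NZB 2, NZB 3, NZW 1, NZW 2, or any NZBWF1 mouse (highest adjusted p = 0.195 for Cd14 and 0.257 for Plin2). Pi16 was higher in NZBWF1 than the mean of logs (log2 2.33), with 4 UMIs in NZW and 146 ± 60.3 CPM in NZBWF1, between the parents. Against NZB 248 genes passed (6.97%), the selecting gene Retnlg among them, and against NZW 51 (1.43%).

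The difference between NZB and NZW was compared between the members and the immature neutrophils of the same mice, with mouse as a block. It differed for 12 genes, 5 above and 7 below 0, apart from Ngp and Camp, by which both stages were selected and whose values are no test. With these, 14 of 8334 genes passed (0.168%; 420 at an unadjusted p under 0.05). Lrg1 and Cybb passed in the same direction in the wider set, where 74 of 6318 genes passed (1.17%), Il1b, Camp, and Ngp included. Both comparisons used the same immature cells of the same mice, so the wider set gives no independent check. For Lrg1 the excess of NZB over NZW was larger than in immature cells by 1.06 (SE 0.241, adjusted p = 0.00801) in the members and by 1.08 (SE 0.202, adjusted p = 0.00116) in the wider set. For Cybb, at 1541 ± 32.2 and 2335 ± 83.6 CPM in immature cells of NZB and NZW, the values were -1.09 (adjusted p = 0.000893) and -1.39 (adjusted p = 1.96e-07).

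Other stage differences of the members were not called in the same direction in the wider set. Ly6e, which restricts viral entry, was higher in NZB than NZW in immature cells (161 ± 51.8 against 58.2 ± 30.4 CPM) and in the wider set (358 ± 22.7 against 133 ± 39.9), while the members stood at 568 ± 261 and 791 ± 64.9. The difference between stages was -2.15 in the members (SE 0.259, adjusted p = 8.33e-13, edgeR). In the wider set, with 488 UMIs in NZB and 191 in NZW, it was 0.00. The SE here is the estimate divided by the root of its test statistic. At an estimate this near 0 that ratio does not measure precision, so no SE is given. Whether the difference is absent was not tested. Ifitm3, an interferon-induced membrane protein, gave -1.04 in the members and 0.18 in the wider set (adjusted p = 0.912). Ly6c2 gave 4.04 in the members and has 2 UMIs in NZB in the wider set, too few for a fitted size there. In the wider set the leading stage differences were Dbi, which binds fatty acyl-CoA (log2 1.65, adjusted p = 2.26e-08), and Cebpe (log2 -3.04, adjusted p = 1.47e-12). Cebpe stood at 661 ± 26.4 and 795 ± 61.5 CPM in immature cells of NZB and NZW, and Padi4 at 227 ± 29.0 and 223 ± 37.8, so that the strains were closer in immature cells than in the wider set.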

How the data were processed

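Femur bone marrow of 9 mice was sequenced with a 3' single cell kit. Per the submitters' processing notes, bcl2fastq 2.20 and Cell Ranger 3.1.0 were used with mm10. The deposited values are UMI counts per gene and barcode, which the authors merged over the 9 libraries into one filtered and one unfiltered table of 31053 genes, without normalization. Whether the merge thinned the libraries was not stated. Barcodes were assigned to mice by their suffix, read as a position in the deposited library list. Gene positions are from GENCODE M21 (GRCm38).

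UMIs were summed per mouse over the members, with a smallest group of 27 barcodes, and tested with edgeR 4.0.16 (TMM, filterByExpr, robust quasi-likelihood, Benjamini-Hochberg, threshold 0.05). NZBWF1 was compared with the parents by coefficients of -0.5, 1, and -0.5. Stage differences were tested with mouse as a block. Shares were compared by exact permutation over the mice. Values with ± are mean ± SD over 3 mice. A floor of 3 UMIs over a strain was used for bounds, and intervals and floors cover counting error only. No doublet caller was run. In 1 alternative, members with more than 3 times the median UMIs of their mouse were left out. So were those with any UMI of 5 other-cell lists (B lineage, T, NK, macrophage, and megakaryocyte). The other lists, with those of monocytes and dendritic cells, were not read, and the T list holds Cd3d. This alternative kept 184 members: 13, 30, and 20 in NZB, 10, 15, and 22 in NZW, and 9, 43, and 22 in NZBWF1. On simulated data with 200 genes changed 4-fold, 170 were recovered in the members (8 others called of 1622) and 192 in the wider set (10 others of 3558). All genes were drawn with 1 common dispersion per set, 0.058 in the members and 0.0182 in the wider set. Differences in spread between genes and in other-cell RNA between libraries were not simulated, so recovery in the real data was not measured.

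Alternatives covered normalization, tool (DESeq2 1.42.0), low counts, quality limits, selection limits, doublets, free RNA, selecting genes, a replicate block, and single mice. The wider set and its alternatives were chosen after seeing the data. The members, gene lists, and tests were chosen with earlier results of these data known. Named genes were, apart from the selecting genes: the 12 of smallest p called in each direction between NZB and NZW and against the mean of logs, up to 4 called genes of each list (or its 2 most abundant), the 5 leading stage differences in each direction, and the 30 most abundant genes. The rule was also applied to the wider set, and the genes that carry a comparison are given. Tab2 and the T-cell genes Cd3e, Cd3g, and Trac were chosen after their values were seen.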

Additional observations from a re-analysis of the deposited data

Results flagged for a closer look

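The difference between NZB and NZW was not the same in the members and in immature neutrophils of the same mice for 12 genes beside the selecting ones (edgeR quasi-likelihood test of the difference, adjusted p under 0.05), of which the 5 of smallest p in each direction are given. The log2 value of NZB minus NZW in the members less that in immature cells was 4.04 for Ly6c2, 3.67 for Cd3d, 0.88 for Lcn2, 9.67 for Cd3g, 1.06 for Lrg1, -2.15 for Ly6e, -1.30 for Ifitm2, -1.04 for Ifitm3, -6.16 for Ccl4, and -1.09 for Cybb. Ly6c2 and Cd3d were at higher mean levels in NZW at both stages, by less in the members, with Ly6c2 at 64.1 and 872 CPM in NZB and NZW members and 3.1 and 765 in immature cells, and Cd3d at 64.3 and 113 and at 9.91 and 271. Ifitm2 and Ifitm3 were at higher mean levels in NZB at both stages, Ifitm2 at 1587 and 1339.5 CPM in the members and 1007 and 384 in immature cells, and Ifitm3 at 1979 and 1218 and at 1981 and 651. The fitted values of Cd3g, which has 0 UMIs in NZW, and of Ccl4, which has 3 in NZB, are no sizes.

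The 12 other-cell lists were measured beside these values. The granulocyte-monocyte precursor list (380.4 to 1773 CPM in NZB members, 2627 to 7843 in NZW), the B-lineage list (16.9 to 357 and 826 to 1355), and the plasma list (84.5 to 131 and 208 to 300.5) did not overlap between the strains. The T list (116 to 592 and 107 to 180) and the monocyte list (761 to 2223 and 1773 to 2262) overlapped. So did the NK, macrophage, dendritic, erythroid, basophil or mast, and megakaryocyte lists, and the eosinophil list was at 0 in both strains. Members held a median of 7.67 ± 4.93 other-cell UMIs in the NZB mice, 11.2 ± 1.26 in the NZW mice, and 7 ± 4.58 in the hybrids (exact permutation, p = 0.443, adjusted 0.812). In the wider set, compared with the same immature cells, Lrg1 (1.08) and Cybb (-1.39) passed in the same direction. Lcn2 (0.52, SE 0.233), Ly6e (0.00), Ifitm2 (1.41, SE 0.671), and Ifitm3 (0.18, SE 0.225) did not pass there. Ly6c2 and Cd3d have 2 and 1 UMIs in NZB there, and Cd3d is limited by the choice of barcodes, so the wider set gives no check of them. Cd3g and Ccl4 were not tested there. The part of other-cell RNA in the members' values was not tested.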

How the results depend on the processing

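Over all settings 2790 alternative values were computed for 132 results of single genes. Of these 2564 kept direction and side of the threshold, 97 passed only in the alternative, 125 no longer passed, and 4 turned direction. The 35 genes called between NZB and NZW, counted with selecting genes as are all counts here, became 12 with at least 10 UMIs in every mouse, 10 with Camp and Ngp under 0.1%, 9 without barcodes that look like doublets, 466 in called barcodes under the quality limits, and 545 in the wider set. Leaving out 1 mouse gave 19 (without NZW 3) to 67 (without NZBWF1 1), and 20 without NZW 2. The 2 calls against the mean of the parents' logs became 13 without a filter, 0 of 484 genes with at least 10 UMIs in every mouse (17 at an unadjusted p under 0.05, edgeR), 4 at 10% S100a8 and S100a9, 15 under the quality limits, 17 in the wider set, and 2 to 6 without 1 mouse (6 without NZBWF1 3, 4 without NZBWF1 1). Against NZB, 9 calls became 22, 0 (29 unadjusted), 17, 216, and 248 in the same order. They became 2 with Camp and Ngp under 0.1%, 2 without barcodes that look like doublets, and 4 (without NZB 2) to 19 (without NZBWF1 1). Against NZW, 3 calls became 14, 0 (27 unadjusted), 40 under the quality limits, and 51 in the wider set. They became 1 with Camp and Ngp under 0.1%, 1 without barcodes that look like doublets, and 5 at 2000 UMIs. Without 1 mouse they became 3 to 6 (6 without NZB 3, NZBWF1 1, or NZBWF1 3, and 5 without NZB 1, NZW 2, or NZW 3). In the doublet and 2000 UMI settings NZBWF1 1 kept 9 barcodes, under the minimum of 10 per mouse, and was left out. Those counts thus reflect the loss of a mouse as well as the barcode limit.

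In the wider set, DESeq2 called 372 genes between NZB and NZW, 11 against the mean of logs, 132 against NZB, and 32 against NZW. Without 1 mouse the ranges were 386 to 603, 10 to 20 (10 without NZBWF1 2, 11 without NZB 3 or NZW 2), 135 to 247 (135 without NZBWF1 1, 144 without NZB 2, 146 without NZB 3), and 32 to 60 (32 without NZBWF1 2, 33 without NZW 3). The 14 stage differences became 74 in the wider set and 9 (without NZW 3) to 16 without 1 mouse. The share of members did not pass after adjustment in any setting, while unadjusted p-values were 0.0429 by exact permutation over the 3 strains and 0.0231 by edgeR for NZBWF1 against the mean of logs. Its log2 ratios ranged over 0.12 to 0.33 for NZB over NZW and 0.25 to 0.53 for NZBWF1 without 1 mouse. The log2 value turned for Ly6e, NZB against NZW, to 1.31 under the quality limits and 1.61 in the wider set, and for Cmc2 in NZBWF1 against the mean of logs to 1.81 and 1.89; the cause was not tested.

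Replicate numbers were not taken to pair the mice: the labels tie them to no shared batch, and deviations of same-numbered members correlated between -0.0535 and 0.394, over 0.1 in 4 of 9 pairs (3 of 9 in the wider set). The study's methods mention batches without saying which mice formed them. As a hint from the data, 6 of 9 mice in the members and 8 of 9 in the wider set correlated best with a mouse of their own number. In each strain replicate 1 had the fewest dividing cells and replicate 2 the most. Only the replicate 2 libraries had part of their neutrophil barcodes called (41.3% in NZB, 20.7% in NZW, and 52.6% in NZBWF1). A factor shared by number was therefore not settled. With the replicate block 49 genes passed between NZB and NZW, 5 against the mean of logs, 16 against NZB, and 6 against NZW, and in the wider set 613, 23, 304, and 65. With 27 to 85 members per mouse, 1622 genes could be tested.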
